A study of Oryza sativa Japonica Group with 9 samples.

Results

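Among 55986 rice gene models, 41 were near 0 in every wild-type (WT) library and expressed in every library of 2 edited genotypes. These 41 gene models were selected on the measured values themselves. A gene model entered when the highest of the 3 WT values was under 1 FPKM, the lowest of the 6 edited values was at least 2 FPKM, and that lowest value was at least 4 times the WT maximum. FPKM corrects fragment numbers for transcript length and for library size, so levels of different gene models can be set side by side. The difference from WT is therefore a description of the 41 and is not tested.

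The samples were grains (caryopses) of the japonica rice Nipponbare at post flowering day 9 by the sample labels, against 7 to 8 days in the text on the series. There were 3 groups of 3 libraries, WT, GSK5-/- and ARF4-/-, called GSK5-edited and ARF4-edited here because the series text describes both as edited plants. The labels give neither the nature of the edits nor the number of independent edited lines, and nothing states that replicates are separate plants. P-values here speak to the variation among these 9 libraries and no further, and that variation may be technical.

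GSK5 belongs to the GSK3/SHAGGY-like protein kinases, which in plants phosphorylate transcription factors of brassinosteroid signalling and hold them inactive until the hormone is perceived. ARF4 belongs to the auxin response factors, transcription factors that bind auxin response elements in promoters. Brassinosteroid and auxin both act on cell division and cell expansion in the developing grain.

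The deposited table gives locus identifiers without names, and none of them occurs in the RefSeq gene table used here (0 matches). The 41 are therefore described by identifier, level and position in locus order, and no function is given to any of them.

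Across the whole series, relative depth lay between 70.7% and 100% of the deepest library, and summed FPKM between 585414 and 626390. The WT libraries were the deepest, at 100%, 98.4% and 95.7%, and the edited libraries lay between 70.7% and 93.6%. WT replicate 3 had a mean Pearson r of 0.941 with the GSK5 libraries and 0.91 with its own group, and ARF4 replicate 3 had 0.93 and 0.901. Loci entered from memory as the edited genes were read in every sample. For the GSK5 locus they gave 39.8 ± 7.95 FPKM in WT and 32.2 ± 1.56 in GSK5-edited grain (SD, n = 3). For the ARF4 locus they gave 84.0 ± 14.2 in WT and 50.4 ± 3.40 in ARF4-edited grain. An edit can leave a transcript in place, so these levels are a weak check of the labels.

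The 41 gene models were low in all WT libraries to a similar degree. Their summed level was 5.20, 4.92 and 4.94 FPKM in WT replicates 1, 2 and 3. It was 1238, 1026 and 1108 FPKM in the GSK5 replicates and 1330, 1317 and 1362 FPKM in the ARF4 replicates. In bulk grain, fewer cells of a type and less RNA per cell cannot be told apart. WT replicate 3, the WT library most like the GSK5 group across all genes, was no exception for the 41, as the rule requires. It held the highest WT value of 10 of the 41.

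Markers of tissue and of sampling were read beside these sums, as loci entered from memory. The 6 endosperm loci summed to 378, 650 and 1651 FPKM in the WT replicates, to 1402 to 1596 in GSK5 and to 246 to 1437 in ARF4, and the ranges overlapped. Within that list, the loci entered as GBSSI, NF-YB1 and GluA1 reached at most 4.16, 0.48 and 9.73 FPKM in any library. The 3 green pericarp loci summed to 696 to 1132 FPKM in WT, 708 to 791 in GSK5 and 815 to 1704 in ARF4. That sum was carried by the locus entered as CAB2R, at 430 to 780, 542 to 589 and 599 to 1504 FPKM. RCA was lower in GSK5, at 91.15 to 130 FPKM, against 176 to 211 in WT and 166 to 209 in ARF4. RBCS2 was lower in ARF4, at 19.6 to 33.7 FPKM, against 55.8 to 145 in WT and 75.7 to 97.1 in GSK5. The 4 embryo loci summed to 17.25 to 41.3 FPKM in WT, 20.2 to 43.4 in GSK5 and 18.4 to 30.1 in ARF4. Among them RAB16A was lower in ARF4, at 1.3 to 5.69 FPKM, against 8.05 to 29.8 in WT and 7.14 to 28.3 in GSK5. OSH1 and OLE16 overlapped between the groups, with highest values of 23.1 and 16.5 FPKM in ARF4, and OLE18 reached at most 0.77. The single nucellus locus stood at 62.0 to 78.6 FPKM in WT, 49.5 to 54.5 in GSK5 and 22.5 to 70.25 in ARF4. The 3 heat shock loci, set as a sign of RNA state, summed to 2.27 to 7.06 FPKM in WT, 23.1 to 53.4 in GSK5 and 4.61 to 9.55 in ARF4. The 2 circadian clock loci summed to 9.74 to 18.5 FPKM in WT, 23.2 to 31.9 in GSK5 and 42.3 to 123 in ARF4. The locus entered as HSP101 had 0.55 to 1.12 FPKM in WT and 1.29 to 4.67 in the edited libraries. In both edited groups minus WT, limma called higher 2 of the 3 heat shock loci (HSP101, adjusted p = 0.0434, and HSP18, 0.0323), 1 of the 2 clock loci (PRR95, 0.0372) and 1 of the 6 endosperm loci (GluA1, 0.0155). GluA1 had 0.11 to 0.46 FPKM in WT, 0.39 to 0.57 in GSK5 and 4.86 to 9.73 in ARF4, so only ARF4 lay apart from WT. It was also called in GSK5 against ARF4 (limma, adjusted p = 0.00957). The clock sum and HSP101 separated every WT library from every edited one, in the direction of the 41, and their part in the result was not tested. HSP82A and HSP18 did not separate them. HSP82A had 1.11 to 3.38 FPKM in WT, 12.8 to 32.6 in GSK5 and 0.84 to 2.46 in ARF4, and was called in GSK5 against ARF4 (limma, adjusted p = 0.0231). HSP18 had 0.61 to 2.56 FPKM in WT, 7.45 to 16.25 in GSK5 and 2.48 to 3.53 in ARF4. No marker locus was among the 41.

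**Figure D1:**
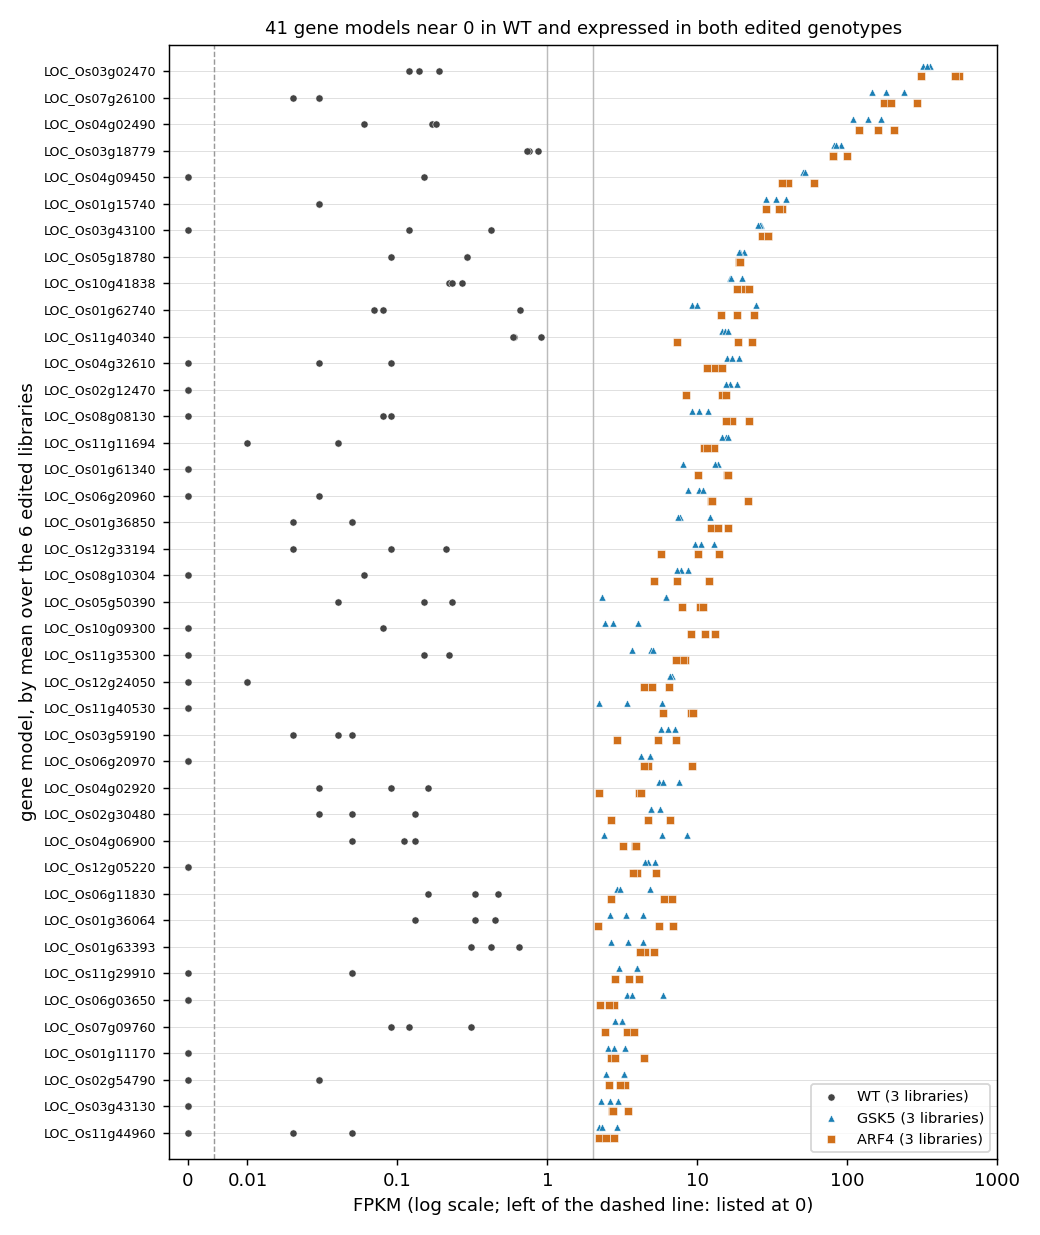
Each row is 1 of the 41 gene models, ordered by its mean over the 6 edited libraries, and each point is the FPKM of 1 library on a log axis (WT circles, GSK5 triangles, ARF4 squares). Points left of the dashed line are listed at 0, the solid lines mark 1 and 2 FPKM, and the WT values, none above 0.91 FPKM, lie apart from all edited values because the rule required it.

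Within WT, the 41 ranged from wholly undetected to just under 1 FPKM. Of the 123 WT values, 40 were listed at 0, 83 were under 0.1 FPKM and the highest was 0.91. There were 8 gene models listed at 0 in all 3 WT libraries, 4 in 2 libraries, 8 in 1 library and 21 in none. Among the 8, LOC_Os02g12470 was the highest in edited grain, with 18.45, 16.4 and 15.5 FPKM in GSK5 and 14.6, 8.42 and 15.4 FPKM in ARF4. LOC_Os01g61340 was also listed at 0 in every WT library and had 13.8, 8.04 and 13.1 FPKM in GSK5 and 15.7, 15.96 and 10.1 FPKM in ARF4. No fold is given for these 8.

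At the other end, 4 gene models had a WT maximum of at least 0.5 FPKM, so the wording "switched on" is too strong for them. LOC_Os03g18779 was measured in every WT library, at 0.75, 0.73 and 0.87 FPKM, though its lowest edited value was 92.3 times its WT maximum. LOC_Os11g40340 had 0.60, 0.59 and 0.91 FPKM in WT. LOC_Os01g63393 had 0.31, 0.42 and 0.65 FPKM. In LOC_Os01g62740 the WT maximum came from replicate 1 alone, at 0.66 FPKM against 0.07 and 0.08. The wording is also too strong for LOC_Os06g11830 and LOC_Os01g36064, whose WT maxima were 0.47 and 0.45 FPKM. Their lowest edited values were 5.66 and 4.84 times those maxima. For the 33 gene models with a WT value above 0, the lowest edited value was 4.11 to 4833 times the WT maximum, with a median of 60.0 times. It was at least 100 times in 11 and under 10 times in 5.

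In edited grain the 41 spanned the range from weakly to very highly expressed. The mean over the 6 edited libraries ran from 2.48 to 401 FPKM, with a median of 7.28 FPKM. Placed among the 23385 gene models tested, this mean stood between the 15.9th and the 99.6th percentile, with a median at the 38.7th. Most of the 41 were therefore expressed below the middle of the tested genes, and a few stood near the top.

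The 4 gene models at 50 FPKM or more carried most of the summed level. LOC_Os03g02470 had 0.14, 0.12 and 0.19 FPKM in WT, 357, 320.1 and 338 FPKM in GSK5 and 557, 312 and 521 FPKM in ARF4. Here ARF4 replicate 2 lay below every GSK5 library while the other ARF4 libraries lay above them, so the edited groups overlapped. LOC_Os07g26100 had 0.02, 0.03 and 0.03 FPKM in WT, 237, 145 and 179 in GSK5 and 175, 293 and 197 in ARF4. Its lowest edited value was 4833 times its WT maximum, the highest such fold of the 33. LOC_Os04g02490 had 0.06, 0.17 and 0.18 FPKM in WT, 166, 108 and 137 in GSK5 and 119, 204 and 160.3 in ARF4. In both of these gene models GSK5 replicate 2 was the lowest edited library and ARF4 replicate 2 the highest. LOC_Os03g18779 was the most even of the 4, with 90.8, 81.6 and 84.4 FPKM in GSK5 and 80.3, 99.2 and 80.5 in ARF4.

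A second tier of 3 gene models lay between 20 and 50 FPKM on average. LOC_Os04g09450 was listed at 0 in WT replicates 1 and 2 and had 0.15 FPKM in replicate 3. It had 51.4, 50.7 and 51.9 FPKM in GSK5, which were close to each other, and 40.02, 36.9 and 60.2 in ARF4. LOC_Os01g15740 had 0.03 FPKM in each WT library, 28.7, 33.6 and 39.2 in GSK5 and 36.6, 34.97 and 28.4 in ARF4. LOC_Os03g43100 had 0.12, 0 and 0.42 FPKM in WT, 26.7, 26.3 and 25.2 in GSK5 and 27.0, 29.6 and 29.4 in ARF4. Every ARF4 value of the last one lay above every GSK5 value, by a small margin.

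There were 12 gene models with a mean between 10 and 20 FPKM, with single edited values from 5.71 to 24.6 FPKM. LOC_Os05g18780 was the most even of all 41: its GSK5 values were 20.5, 19.15 and 18.8 FPKM, its ARF4 values 18.9, 18.9 and 19.2, and the highest was 1.09 times the lowest. In WT it had 0.29, 0.29 and 0.09 FPKM. LOC_Os10g41838 was likewise even, at 16.45, 19.8 and 16.65 FPKM in GSK5 and 20.7, 21.9 and 18.5 in ARF4, against 0.22, 0.27 and 0.23 in WT. LOC_Os11g40340 was even in GSK5, at 14.6, 15.3 and 15.99 FPKM, but not in ARF4, at 18.7, 7.29 and 23.1. LOC_Os01g62740 varied within GSK5, with 24.6 FPKM in replicate 1 and 9.15 and 9.91 in the others, and its ARF4 values were 14.3, 23.8 and 18.3. Of the remaining members of this tier, LOC_Os12g33194 had a mean of 11.0 FPKM in GSK5 and 9.88 in ARF4, and LOC_Os01g36850, LOC_Os08g08130, LOC_Os04g32610 and LOC_Os11g11694 are described with the comparison of the edited groups, and LOC_Os06g20960 with its neighbour.

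Below 10 FPKM the counts were 8 gene models with means between 5 and 10 FPKM and 14 under 5 FPKM. LOC_Os08g10304 had means of 7.90 ± 0.708 FPKM in GSK5 and 8.14 ± 3.47 in ARF4 (SD, n = 3). LOC_Os12g05220, listed at 0 in every WT library, had 4.8 ± 0.404 in GSK5 and 4.33 ± 0.846 in ARF4. LOC_Os03g59190 had 6.40 ± 0.65 in GSK5 and 5.21 ± 2.18 in ARF4, where replicate 3 was low at 2.89 FPKM. The 9 gene models outside the rule for names had single edited values between 2.21 and 10.8 FPKM and WT values of at most 0.31.

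The limits of the rule differed in how many gene models missed only that limit. At the fold limit there were few: 44 of the 32727 gene models with a WT maximum under 1 FPKM reached 2 FPKM in all 6 edited libraries, and 3 of these 44 missed the fold. Just inside the fold limit were LOC_Os01g63393 at 4.11 times, LOC_Os01g36064 at 4.84 times and LOC_Os06g11830 at 5.66 times. Just outside it were LOC_Os12g02160 at 3.68 times, LOC_Os11g44750 at 3.42 times and LOC_Os10g04520 at 2.62 times. The limit of 2 FPKM alone was missed by 194 gene models, counted down to any edited minimum above 0. With that limit at 1 FPKM the rule found 55 gene models against 41, so most of the 194 lay under 1 FPKM. Just inside were LOC_Os01g36064, LOC_Os04g02920 and LOC_Os11g40530, with lowest edited values of 2.18, 2.19 and 2.20 FPKM. Just outside were LOC_Os06g04930, LOC_Os02g06310 and LOC_Os07g15340, with 1.82, 1.62 and 1.5 FPKM. A further 10 gene models missed the WT limit alone.

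The same limits found fewer gene models in every other arrangement of the 3 groups. Near 0 in both edited groups and expressed in WT were 3 gene models, against the 41 of the reverse. LOC_Os08g41489 was the highest of the 3, with 12.65, 8.81 and 5.10 FPKM in WT, 0.67, 0.64 and 0.20 in GSK5 and 0.90, 0.39 and 0.59 in ARF4. Only GSK5 was high for 8 gene models and only ARF4 for 10. Only GSK5 was low for 1, and only ARF4 for 0. These counts are a description and were not tested. The arrangements put 3 libraries against 6 in different ways, and the spread within WT and within ARF4 was larger than within GSK5, with median SDs of 0.27, 0.24 and 0.11 on the log2(FPKM + 1) scale. Whatever separates the WT plants from both edited genotypes, apart from the edits, cannot be told apart from what the edits share.

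The number of gene models found depended on single libraries. Without ARF4 replicate 2 the same limits found 98 gene models, and without WT replicate 3 they found 57. Leaving out any other library gave 41 to 44. A rule with fewer libraries is easier to pass, so the 41 were contained in each of these sets by construction. Without WT replicate 3 and ARF4 replicate 3 together, the libraries nearest to the GSK5 group, there were 70.

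Evenness between the edited groups was not a condition of the rule beyond the 2 FPKM floor, so GSK5 against ARF4 was tested across all genes. Nearly all of the 41 showed no difference that passed the test: limma called 1 of them, LOC_Os10g09300, and 40 were not called. Over all 23385 gene models tested, 113 were called in either direction (0.483%) and 41 of those were lower in GSK5 (0.175%). Calls are Benjamini-Hochberg adjusted p-values under 0.05 from limma, and differences are on the log2(FPKM + 1) scale, which understates the change of low genes. A miss does not show that the groups were equal. The 113 rested on single libraries. Leaving out WT replicate 1 or 2 gave 187 and 64. Leaving out the GSK5 replicates in turn gave 10, 11 and 10, and leaving out the ARF4 replicates in turn gave 2, 383 and 479.

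LOC_Os10g09300 was the exception. It had 0, 0.08 and 0 FPKM in WT, 4, 2.72 and 2.42 FPKM in GSK5 and 9.02, 13.1 and 11.2 FPKM in ARF4. Every ARF4 library lay above every GSK5 library, and both groups lay above WT, as the rule requires. The log2 difference, GSK5 minus ARF4, was -1.58 with SE 0.19 (limma, adjusted p = 0.0198). The mean level was 3.64 times higher in ARF4-edited than in GSK5-edited grain, the widest gap among the 41. The call was lost without GSK5 replicate 1, 2 or 3 (limma, adjusted p = 0.051, 0.131 and 0.137) and without ARF4 replicate 1 (0.0715). It was also lost with log2(FPKM + 0.1) (0.0809) and in a fit blocked on replicate number (0.0989). Over all 18 alternatives the adjusted p ran from 0.0135 to 0.137, and the difference from -1.85 to -0.997.

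The highest gene model, LOC_Os03g02470, had a log2 difference of -0.41 with SE 0.20 (limma, adjusted p = 0.424). Without ARF4 replicate 2 it was called, with a difference of -0.67 (limma, adjusted p = 0.0247), the only alternative of 18 that called it. That library, at 312 FPKM, was the one ARF4 value below the GSK5 range.

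Several other gene models had libraries of the edited groups that did not overlap, without passing the test. Non-overlap in either direction was found for 14 of the 41, LOC_Os10g09300 included, a larger share than the 26.3% of all gene models tested. ARF4 lay above GSK5 in 8 of the 14 and GSK5 above ARF4 in 6. LOC_Os08g08130 had 10.2, 11.8 and 9.17 FPKM in GSK5 and 22.0, 17.1 and 15.4 in ARF4, a log2 difference of -0.74 with SE 0.16 (limma, adjusted p = 0.117). LOC_Os11g35300 had 4.90, 5.09 and 3.66 FPKM in GSK5 and 8.24, 8.05 and 7.22 in ARF4, a difference of -0.68 with SE 0.16 (adjusted p = 0.136). LOC_Os11g40530, listed at 0 in every WT library, had 5.79, 2.20 and 3.38 FPKM in GSK5 and 5.89, 9.11 and 9.27 in ARF4, so that the groups barely separated. LOC_Os01g36850 had means of 9.04 ± 2.60 FPKM in GSK5 and 13.96 ± 1.92 in ARF4 (SD, n = 3).

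GSK5 lay above ARF4 in the remaining 6. LOC_Os04g02920 had 5.56, 5.93 and 7.53 FPKM in GSK5 and 4.10, 2.19 and 4.22 in ARF4, a log2 difference of 0.73 with SE 0.22 (limma, adjusted p = 0.212). LOC_Os11g11694 had means of 15.4 ± 0.634 FPKM in GSK5 and 11.8 ± 0.977 in ARF4, and LOC_Os04g32610 had 17.3 ± 1.62 and 13.1 ± 1.55 (SD, n = 3). LOC_Os12g24050 had 6.72, 6.54 and 6.59 FPKM in GSK5, just above the highest ARF4 value of 6.44. In LOC_Os02g12470 the gap was likewise narrow, 15.5 against 15.4 FPKM.

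The 41 were also read as a set beside all gene models tested. The log2 difference was above 0 for 18 and below 0 for 23, with a median of -0.04, and over all gene models tested the median was 0.05 with 57.0% above 0. The absolute difference had a median of 0.27 for the 41 and 0.20 for all tested. It was under 0.5 for 32 of the 41 and for 80.3% of all tested. An unadjusted p under 0.05 was found for 11 of the 41, a larger share than the 13.8% of all tested. The shares were not tested against each other. Since the 2 FPKM floor had to hold in all 6 libraries, gene models with wide gaps at low level were less able to enter.

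**Figure D2:**
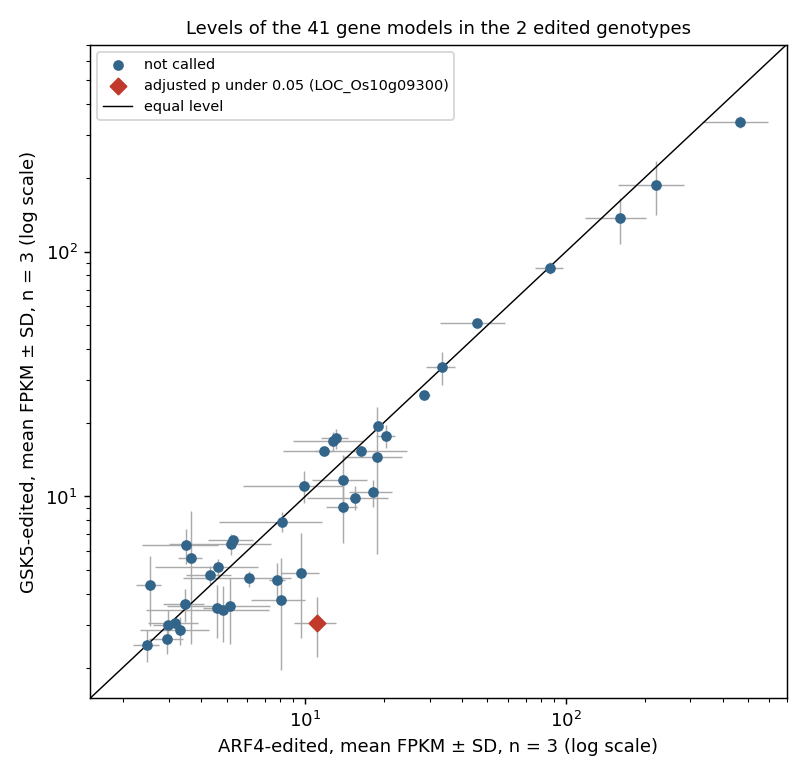
Each point is 1 of the 41 gene models, with its mean FPKM in the ARF4-edited group on the horizontal axis and in the GSK5-edited group on the vertical axis, both on log scales with bars of 1 SD over 3 libraries. Points lie on both sides of the line of equal level, and LOC_Os10g09300, the only one called (limma, adjusted p = 0.0198), lies below it at 11.1 against 3.05 FPKM.

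Spread among libraries within an edited group followed that of the series. The median SD of the 41 on the log2(FPKM + 1) scale was 0.15 in GSK5 and 0.25 in ARF4, where all tested gene models had 0.11 and 0.24. The highest of the 6 edited values was 2.02 times the lowest in the median gene model, at most 2 times in 20 of the 41 and over 3 times in 7. ARF4 replicate 2 held the highest edited value of 18 gene models and the lowest of 8. GSK5 replicate 2 held the highest of 0 and the lowest of 8. ARF4 replicate 2 also had the lowest endosperm sum of all 9 libraries, 246 FPKM. That sum was carried by the locus entered as SWEET11, at 169 FPKM against 1006 and 1334 in the other ARF4 libraries, while BEIIb, at 36.2 FPKM against 33.9 and 32.9, was not lower there. The part of the SWEET11 difference in the levels of the 41 was not tested.

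The 41 were spread over 11 of the 12 chromosomes. Chromosome 1 held 7, chromosome 11 held 6, chromosomes 3 and 4 held 5 each, chromosome 6 held 4, chromosomes 2 and 12 held 3 each, and chromosomes 5, 7, 8 and 10 held 2 each. Chromosome 9 held 0 of its 1288 tested gene models. As a share of tested gene models the highest was chromosome 11, with 0.447%, and the lowest above 0 was chromosome 5, with 0.106%. The share over all tested gene models was 0.175%.

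Within chromosomes, place was counted by locus number, from 1 at the lowest number. Identifiers in the table carry the chromosome and a number that rises along it, so place is an order and not a distance in bases. Of the 5 members on chromosome 4, 4 lay within its first 744 places of 5317, among them LOC_Os04g02490 at place 141 and LOC_Os04g09450 at place 744. On chromosome 8 both members, LOC_Os08g08130 and LOC_Os08g10304, lay between places 686 and 898 of 4188. On chromosome 6 all 4 lay at or before place 1866 of 4709. On chromosome 1 LOC_Os01g61340, LOC_Os01g62740 and LOC_Os01g63393 lay between places 5315 and 5507 of 6529. These stretches were picked after the places had been seen, and no gathering of members was tested. On other chromosomes members lay far apart, from place 148 to 5081 on chromosome 3, 1619 to 4409 on 5 and 404 to 2922 on 12.

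Most of the 41 stood alone. The nearest other member on the same chromosome was a median of 464 places away, and 29 of the 41 were over 100 places from any other. The edited loci were not close either: the locus taken as GSK5 was 311 places from its nearest member, LOC_Os03g59190, and the locus taken as ARF4 was 600 places from LOC_Os01g63393.

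**Figure D3:**
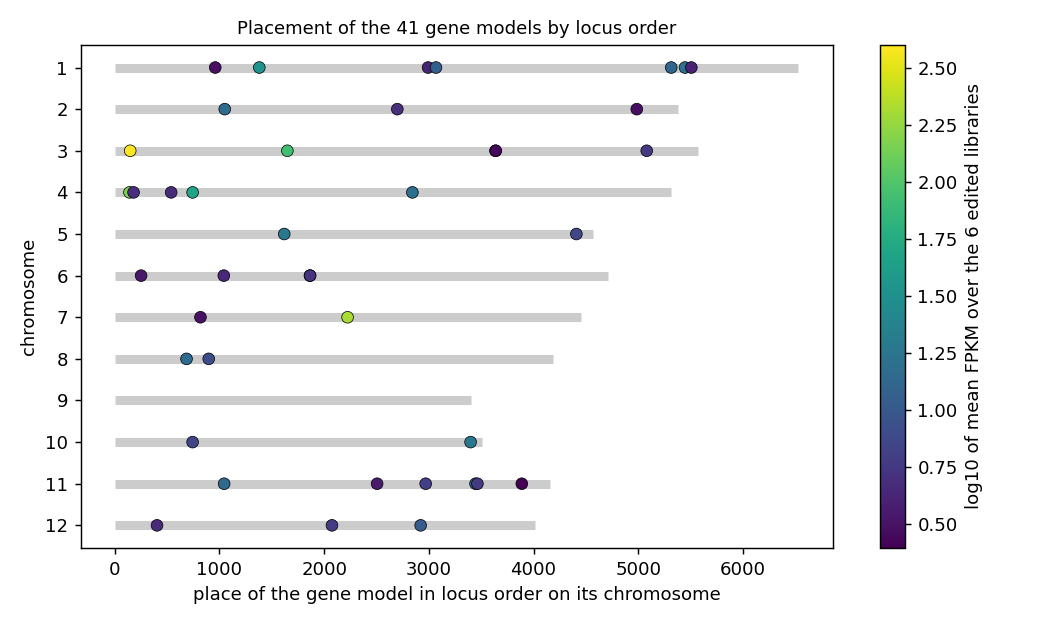
Grey bars show the 12 chromosomes as ordered gene models, and each point is 1 of the 41 at its place in locus order, coloured by the log10 of its mean FPKM over the 6 edited libraries. Points lie on 11 chromosomes and none on chromosome 9, and the overlapping points on chromosomes 3 and 6 are the pairs at most 2 places apart.

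Only 4 of the 41 lay within 5 places of another, as 2 pairs. LOC_Os06g20960 and LOC_Os06g20970 were direct neighbours. The first had 0.03, 0 and 0 FPKM in WT, 10.2, 10.8 and 8.64 in GSK5 and 12.3, 21.6 and 12.6 in ARF4. Its ARF4 libraries all lay above its GSK5 libraries, with a log2 difference of -0.56 and SE 0.21 that did not pass (limma, adjusted p = 0.308). The second was listed at 0 in every WT library and had 4.83, 4.84 and 4.22 FPKM in GSK5 and 4.67, 9.22 and 4.42 in ARF4. ARF4 replicate 2 was the highest library and GSK5 replicate 3 the lowest for both. The gene models on either side of this pair were listed at 0 in all 9 libraries.

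The other pair, LOC_Os03g43100 and LOC_Os03g43130, had 1 gene model between them. LOC_Os03g43130 was listed at 0 in every WT library and had 2.96, 2.28 and 2.60 FPKM in GSK5 and 2.70, 3.46 and 2.73 in ARF4. The gene model between, LOC_Os03g43114, did not share the pattern: it had 2.93, 2.34 and 2.95 FPKM in WT, 3.58, 3.28 and 3.02 in GSK5 and 3.18, 2.68 and 3.16 in ARF4. A wider window added LOC_Os11g40340 with LOC_Os11g40530, 18 places apart, and LOC_Os04g02490 with LOC_Os04g02920, 39 places apart. Whether adjacent gene models overlap or share reads could not be read from the table, which holds no coordinates.

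Gene models beside the 41 were not chosen by the rule, and their difference from WT was tested. In the contrast of both edited groups together minus WT, limma called 13 of the 193 tested neighbours within 5 places (6.74%), 5 higher and 8 lower, beside 932 of all 23385 tested gene models (3.99%). All 41 members were called in that contrast, which the rule used, so nothing is read from it. The median log2 difference of the neighbours was 0.13 and that of all tested 0.09, and the median absolute difference was 0.26 in both. An unadjusted p under 0.05 was found for 24.9% of the neighbours and 24.2% of all tested. The called share was above that of all tested and the other measures were close to it, and the difference in shares was not tested. Direct neighbours, 1 place away, gave 4 calls of 52 (7.69%), 2 higher and 2 lower. The count of 13 rested on single libraries. Leaving out the WT replicates in turn gave 3, 2 and 39, leaving out the GSK5 replicates in turn gave 4, 2 and 3, and leaving out ARF4 replicate 1 gave 4. The 39 were 20.6% of the neighbours, at a background of 18.9% without WT replicate 3. Calls over all tested gene models also moved without single libraries, from 139 to 4367 beside the 932. They fell below 932 in each leave-out listed here that lowered the 13, so these drops were not particular to the neighbours.

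**Figure D4:**
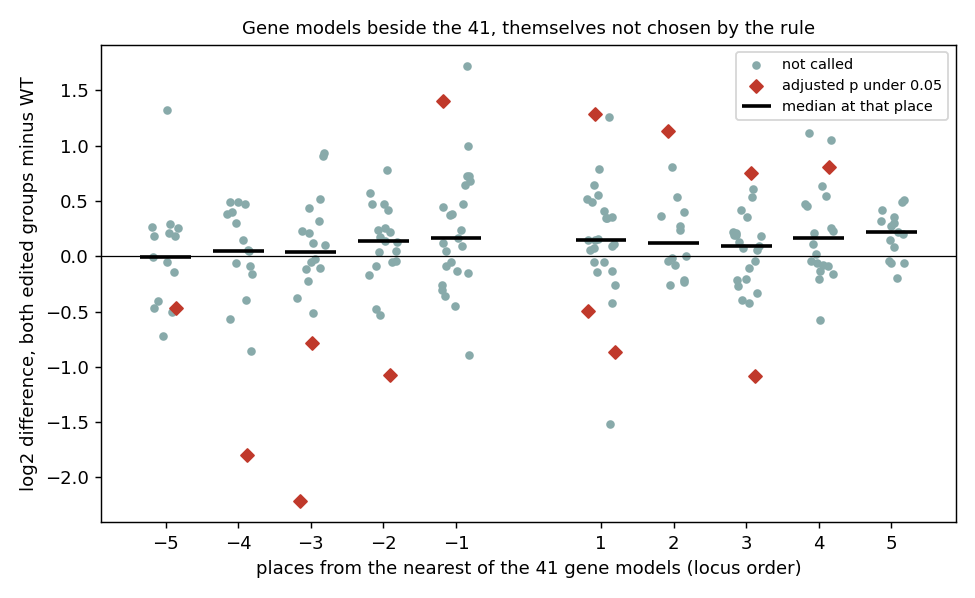
Each point is 1 of the 193 tested gene models within 5 places of a member, at its signed place from the nearest member on the horizontal axis and its log2 difference, both edited groups minus WT, on the vertical axis. Diamonds are the 13 called by limma, 5 above and 8 below 0, and the bars, medians at each place, stay close to 0.

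The called neighbours with the widest differences moved in both directions. LOC_Os12g24020, 3 places from LOC_Os12g24050, was the furthest down: it had 579, 395 and 209 FPKM in WT, 75.6, 80.2 and 77.5 in GSK5 and 57.5, 87.1 and 93.4 in ARF4, a log2 difference of -2.21 with SE 0.30 (limma, adjusted p = 0.0104). It lost its call only without WT replicate 2 (adjusted p = 0.0683) among 17 alternatives, over which the adjusted p ran from 0.00194 to 0.0683. LOC_Os04g02880 had 44.8, 19.98 and 15.8 FPKM in WT, 12.3, 9.37 and 7.60 in GSK5 and 2.62, 7.45 and 3.08 in ARF4 (difference -1.80, SE 0.38, adjusted p = 0.0417). Its call was lost in 9 of 17 alternatives, with adjusted p up to 0.131.

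LOC_Os10g09290 was the direct neighbour of LOC_Os10g09300 and had its 3 groups in the same order. It had 34.6, 36.9 and 36.2 FPKM in WT, 68.0, 82.3 and 69.5 in GSK5 and 91.4, 157 and 146 in ARF4. Both edited groups lay above WT, and ARF4 above GSK5, in every library. The log2 difference of both edited groups from WT was 1.41 with SE 0.17 (limma, adjusted p = 0.00622), and none of the 17 alternatives ended the call, their adjusted p ranging from 0.00107 to 0.0435. GSK5 minus ARF4 was -0.80 with SE 0.20 and did not pass (limma, adjusted p = 0.146). Unlike LOC_Os10g09300, this gene model was well expressed in WT. Whether reads are shared between these adjacent gene models was not tested.

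LOC_Os07g09770 was listed at 0 in every WT library and had 2.21, 2.34 and 2.27 FPKM in GSK5 and 1.18, 0.01 and 1.68 in ARF4. It missed the rule through its low ARF4 values (difference 1.28, SE 0.28, limma adjusted p = 0.048), and its call was lost in 12 of 17 alternatives, with adjusted p up to 0.163. LOC_Os11g40360, 2 places from LOC_Os11g40340, had 0.24, 0.12 and 0.39 FPKM in WT, 1.71, 2.57 and 1.87 in GSK5 and 1.86, 0.81 and 1.84 in ARF4 (difference 1.13, SE 0.20, limma adjusted p = 0.0242). Its call was lost in 8 of 16 alternatives, with adjusted p up to 0.12. Both lay beside a member and had values of their own near 0 in WT.

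The numbering of the identifiers was also counted. Of the 41, 7 had a locus number that was not a multiple of 10 (17.1%), against 1898 of 23357 tested gene models with a locus number (8.13%). They were LOC_Os01g36064, LOC_Os01g63393, LOC_Os03g18779, LOC_Os08g10304, LOC_Os10g41838, LOC_Os11g11694 and LOC_Os12g33194. This is a count of few gene models and was not tested.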

How the data were processed

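RNA sequencing of 9 grain libraries was analysed from 1 table deposited by the authors, which gives FPKM per gene model, rounded to 2 decimals. Trizol extraction and a TruSeq library kit are named per the labels' protocols. Bowtie 0.12.2 and build mm8, a mouse build, are named per the submitters' processing notes. The rice build, the annotation and the program that made the FPKM: not given in the sources used here. A count model does not suit FPKM and was not used, and absolute depth is unknown. Relative depth came from the steps of low values (36 library pairs, median residual 0.00594 log2).

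The 41 members were found by their rule. Members, lists and tests were chosen with earlier results of these data known. Gene models with at least 1 FPKM in at least 3 libraries (23385) were fitted as log2(FPKM + 1) with limma 3.58.1 (R 4.3.3, mean-variance trend, all 9 libraries, group means), for GSK5 minus ARF4 and for both edited groups minus WT, with Benjamini-Hochberg adjustment over all tested. Neighbours lay within 5 places in locus order. The 185 gene models without chromosome and number have no place. The fit of GSK5 against ARF4 was tested on simulated data (5 simulations, 200 changed genes). With equal spread it called 39.8% of changes of 1 log2 unit and 74.5% of changes of 2, and 5.25% of calls were false. With group spreads as measured these were 41.9%, 70.8% and 3.14%. Many changes of 1 log2 unit would thus be missed.

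Named by rule were the 25 members with the highest minimum over the 6 edited libraries, members called in GSK5 against ARF4, members in pairs, the 3 nearest each limit, and the 5 called neighbours with the largest change. Other members are named where a count of few is listed, and LOC_Os07g09760 for the gene models beside it, after their values had been seen. Marker and edited loci were written from memory and their names are unchecked. Alternatives covered the limits of the rule, pseudocount, filter, scaling, samples in the fit, a replicate block and leaving out libraries. Tables were handled in pandas 2.3.3 and numpy 2.4.6 (Python 3.11.15; scipy 1.17.1), and plots drawn with matplotlib 3.10.9.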

Additional observations from a re-analysis of the deposited data

Results flagged for a closer look

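LOC_Os10g09300 differed between the edited groups in its change from WT, by -1.58 on the log2(FPKM + 1) scale (GSK5 minus ARF4, limma, adjusted p = 0.0198). The WT mean cancels in this contrast. Its values per library and the alternatives that end the call stand with the comparison of the edited groups.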

How the results depend on the processing

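The count of 41 became 20 with an edited minimum of 5 FPKM, 41 to 98 without single libraries, and 70 without WT replicate 3 and ARF4 replicate 3, a setting chosen after seeing the data; other limits and scaling kept it within 1.5 times. In GSK5 against ARF4, 113 calls became 69 with log2(FPKM + 0.1), 220 with no filter, 211 with only the edited groups, 864 without WT replicate 3 and ARF4 replicate 3, and 2 to 479 without single libraries. Members called were 0 with log2(FPKM + 0.1) and 0 to 2 without single libraries; their median difference stayed between -0.17 and -0.02. For both edited groups against WT, 932 calls became 6166 without WT replicate 3 and ARF4 replicate 3 and 139 to 4367 without single libraries (231, 139 and 4367 for the WT replicates in turn, 295, 195 and 240 for GSK5, 295 and 1892 for ARF4 replicates 1 and 2). The 13 called neighbours became 8 under quantile normalization, 50 without those 2 libraries and 2 to 39 without single libraries. Within 2 or 10 places the called neighbours were 6 or 26, which was 6.98% or 6.93% of those tested, beside 3.99% of all tested. The causes were not tested. Pairs stayed at 4 members with either other window.

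With the replicate number as a block, GSK5 against ARF4 gave 30 calls and 0 members, both edited groups against WT 308, and neighbours 3. Same-numbered libraries did not deviate together (correlations -0.349 to 0.0833, against -0.32 to 0.351 for different numbers). Whether the libraries were collected in pairs cannot be told from these correlations. Without counts, no interval can be given for levels near 0.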

Other observations

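The gene models around 2 members were read in full after their values had been seen. Beside LOC_Os07g09760, which had 0.09, 0.31 and 0.12 FPKM in WT, 3.15, 3.14 and 2.84 in GSK5 and 3.38, 3.75 and 2.42 in ARF4, the gene model LOC_Os07g09750 was listed at 0 in every WT library and had 1.17, 0.99 and 1.00 FPKM in GSK5 and 0.40, 0.24 and 0.21 in ARF4. With LOC_Os07g09770 this makes 3 adjacent gene models near 0 in WT and higher in value in the edited groups, with the exception of 0.01 FPKM for LOC_Os07g09770 in ARF4 replicate 2. The gene models next to them, LOC_Os07g09730, LOC_Os07g09740 and LOC_Os07g09780, were also near 0 in WT and stayed at most 0.17 FPKM in every library. Beyond these, LOC_Os07g09720 and LOC_Os07g09800, were expressed in WT, at 10.7 to 16.6 and 17.7 to 24.7 FPKM.

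Beside LOC_Os11g40340, LOC_Os11g40350 was listed at 0 in every WT library and had 1.52, 1.55 and 0.60 FPKM in GSK5 and 1.58, 0.37 and 4.23 in ARF4 (limma, both edited groups minus WT, adjusted p = 0.104). LOC_Os11g40380 rose from 0.54, 0.83 and 0.94 FPKM in WT to 1.72, 1.70 and 1.97 in GSK5 and 2.34, 2.39 and 2.46 in ARF4 (log2 difference 0.81, SE 0.13, adjusted p = 0.0182). Between them LOC_Os11g40370 had 0.99 to 1.39 FPKM in WT and 1.17 to 1.53 in the edited libraries. These stretches were picked for their values, so they are a description with no test of the stretch.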
